A study of Homo sapiens with 8 samples.

Results

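Mitochondrial DNA carries only a few of the genes a mitochondrion needs, and the proteins that copy it and transcribe it are encoded in the nucleus. The genes described here are 9 nuclear genes for that machinery, chosen by name for their role, with earlier results of these data known: TFAM, TFB1M, TFB2M, POLRMT, POLG, POLG2, SSBP1, TOP1MT and LRPPRC. They had 12 probes on the array, of 58201 in all, and the array held 22439 genes with a name. On all 8 arrays each of the 12 probes was well above background, so that all 9 genes were among the 10956 genes measured there. TFAM had 2 probes, LRPPRC had 3, and each other gene had 1.

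The study asked which RNAs enter the silencing complex when miR-634 is added to squamous carcinoma cells. A431 cells, a human line from a cutaneous squamous cell carcinoma (cSCC), were transfected with miR-634 or with the control miRNA miR-NC, each at 10 nM for 24 h. AGO2, the Argonaute protein that holds a miRNA on its target RNA, was then pulled down with its bound RNA (RNA immunoprecipitation, RIP), and total RNA was kept as the input. Input and RIP of both kinds of cell make 4 groups of 2 arrays, each read in 1 color. No allele or other agent distinguished the groups. A normal rabbit IgG antibody is named for the input arrays in the labels, whereas the study's methods call them total RNA, and they are treated here as input. It is not stated whether the 2 arrays of a group came from separate transfections, so the p-values below measure only the spread between these arrays, which may be technical. All 8 arrays lay on 1 slide and in 1 scan, with the input in row 1 above the RIP in row 2 and the miR-NC arrays (columns 1 and 2) left of the miR-634 arrays (columns 3 and 4), so that position and group cannot be told apart.

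Of the spots, 45.6% to 45.8% were well above background in the input, 33.6% and 34.5% in the miR-NC RIP and 40.0% on both arrays of the miR-634 RIP. The 9 squamous epithelial markers examined (KRT5, KRT6A, KRT14, KRT17, TP63, CDH1, EGFR, SFN and DSP) were well above background on all 8 arrays. Of the markers of other cell types, 0 of 5 for fibroblasts, 1 of 3 for leukocytes (CD14), 1 of 2 for endothelium (CDH5) and 0 of 2 for melanocytes reached this on all 8 arrays. Of the others, COL1A2, COL3A1, CD3E, PECAM1 and MLANA were well above background on 0 arrays, DCN on 1, COL1A1 and PTPRC on 4, and PDGFRB and PMEL on 6.

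Transcription of mitochondrial DNA starts when TFAM, a protein that also packs that DNA into nucleoids, bends a promoter and brings in the RNA polymerase POLRMT, while TFB2M opens the strands. The same polymerase makes the primers from which DNA polymerase gamma, built of POLG and POLG2, copies the DNA, with SSBP1 covering the strand laid bare. A miRNA finds its RNAs mainly through its seed, the bases from 2 to 8 at its 5′ end. The sequence of miR-634 is shown because this RNA, in place of miR-NC, is what set the cells apart. It is given by RefSeq (GRCh38.p14, chr17:66787132-66787153, plus strand), 5′ to 3′, with the seed in capitals.

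hsa-miR-634: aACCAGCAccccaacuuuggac

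An RNA that pairs with the whole seed holds UGCUGGU. The transcripts of the 9 genes were not searched for it here.

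TFAM was lower in the input and higher in the AGO2-bound RNA of miR-634 cells, and its enrichment rose 2.997-fold with the probe that stood for the gene. TFAM is one of the genes that the study treated as an established miR-634 target. The probe annotated to NM_001270782 was the brighter one and stood for TFAM. Values of each probe are log2 intensities relative to the array's 75th percentile, taken over the probes well above background on all arrays, and are called levels. The levels of this probe were 1.73 and 1.68 in the miR-NC input, 2.21 and 2.02 in the miR-NC RIP, 1.09 and 1.09 in the miR-634 input, and 3.15 and 3.02 in the miR-634 RIP. The miR-634 input lay lowest and the miR-634 RIP highest, and no pair of groups overlapped. The enrichment, the level in the RIP minus that in the input on the log2 scale, in miR-NC cells was 0.41 ± 0.10 (SD, n = 2), against 1.996 ± 0.090 (SD, n = 2) in miR-634 cells. The difference between both, the log2 fold change of enrichment, was 1.58 (SE 0.11, adjusted p = 4.72e-05 by limma, Benjamini-Hochberg adjusted over 16805 probes). The arrays numbered 1 gave a 2.98-fold change and those numbered 2 a 3.01-fold change. The log2 change lay above that of 93.2% of the measured genes.

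**Figure D1:**
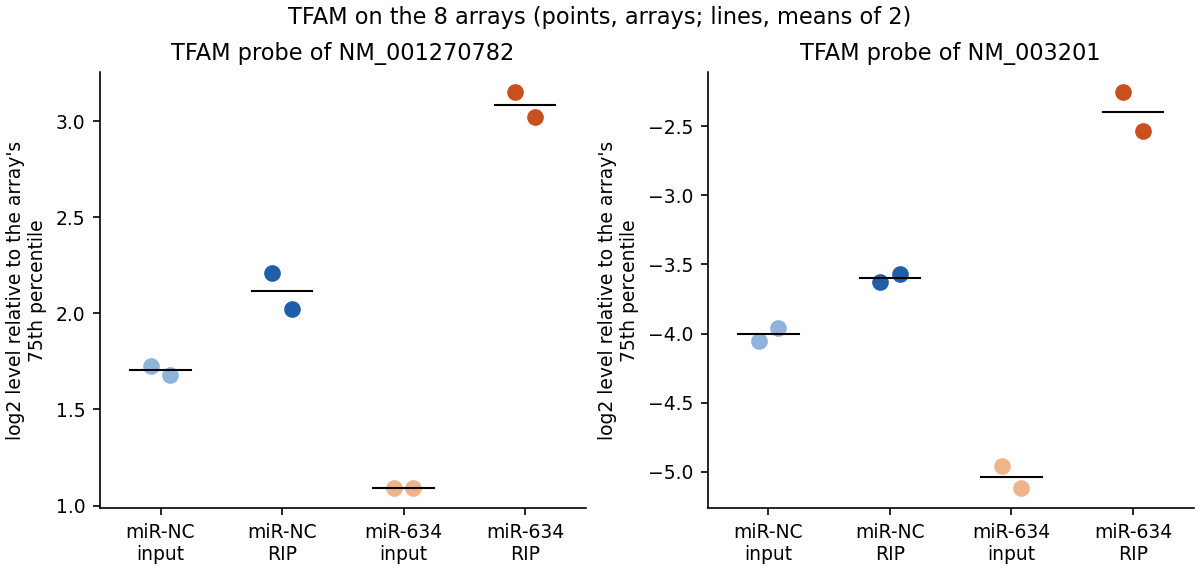
Level of TFAM on each array (y axis, log2 relative to the array's 75th percentile) in the 4 groups (x axis), for each of its 2 probes, with 1 point an array and a line at the mean of 2. Both probes are lowest in the miR-634 input and highest in the miR-634 RIP, where the brighter probe reads 3.15 and 3.02.

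The other TFAM probe, annotated to NM_003201, showed the same order of groups. Its levels were -4.05 and -3.96 in the miR-NC input, -3.62 and -3.57 in the miR-NC RIP, -4.96 and -5.12 in the miR-634 input, and -2.25 and -2.54 in the miR-634 RIP. Again the groups did not overlap. This dimmer probe had intensities of 94.7 and 76.9 in the miR-634 input, against 6289 and 5689 with the first probe. The enrichment in miR-NC cells was 0.41 ± 0.03 (SD, n = 2), close to that of the first probe, against 2.65 ± 0.09 (SD, n = 2) in miR-634 cells. The fold change of enrichment was 4.72 (log2 2.24, SE 0.15, adjusted p = 3.63e-05 by limma). Its 95% interval on the log2 scale, 1.88 to 2.60, lay above that of the first probe, 1.31 to 1.85, but the difference between the probes was not tested. With normexp background correction and quantile normalization the second probe gave 1.48 and the first 1.56, and the input change of the second probe was -0.46 (adjusted p = 0.0208) in place of the value below. Which TFAM transcripts each probe detects was not examined here.

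The input and the RIP both contributed to the fold change of TFAM. The input level fell by 0.61 on the log2 scale in miR-634 cells (SE 0.08, adjusted p = 0.00511 by limma), and only 2.23% of the measured genes had a lower input change. The second probe fell by 1.03 (SE 0.10, adjusted p = 0.00244), with 0.292% of the genes below it. In RNA of a whole culture, fewer cells that express a gene and less of its RNA per cell cannot be told apart. The RIP level rose by 0.97 (SE 0.08, adjusted p = 5.26e-05) with the first probe and by 1.20 (SE 0.10, adjusted p = 7.20e-05) with the second. On the main scale the lower input thus made up 38.8% of the log2 fold change of enrichment with the first probe and 46.2% with the second. These shares depend on the scaling. With normexp and quantile normalization the first probe had the larger share (input changes -0.59 and -0.46, log2 fold changes 1.56 and 1.48). Without a filter on dim probes, which left 58179 probes in both the limma fit and the adjustment, neither input change passed the test (adjusted p = 0.0913 and 0.0524).

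Among the 9 genes, TFAM alone had an input change past the threshold on the main scale. With normexp and quantile normalization POLRMT was also called, at 0.23 (adjusted p = 0.0477). No gene of the 9 rose in the input and 1 fell, against 9.88% of all measured genes higher and 10.6% lower. The input changes of the other 8 genes ran from -0.17 for POLG (adjusted p = 0.0818) to 0.19 for POLRMT (adjusted p = 0.0877). In the RIP, 4 of the 9 genes rose and 4 fell, against 30.6% of all genes higher and 46.1% lower. With spike-in scaling the RIP changes of TFB2M, POLG2 and TOP1MT were above 0, at 0.27, 0.62 and 0.42, and that of SSBP1 was -0.31 and not called (adjusted p = 0.175), so that no fall in the RIP was called. POLG2 (adjusted p = 0.00461) and LRPPRC (0.95, adjusted p = 1.19e-05) were then called higher in the RIP. The median RIP change of all measured genes on that scale was 0.68, above the values of TFB2M, POLG2 and TOP1MT. The fit with spike-in scaling gave all probes the same error, so its p-values followed the size of the value alone. A call lost or kept on that scale thus reflects a different error as well as a moved zero.

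**Figure D2:**
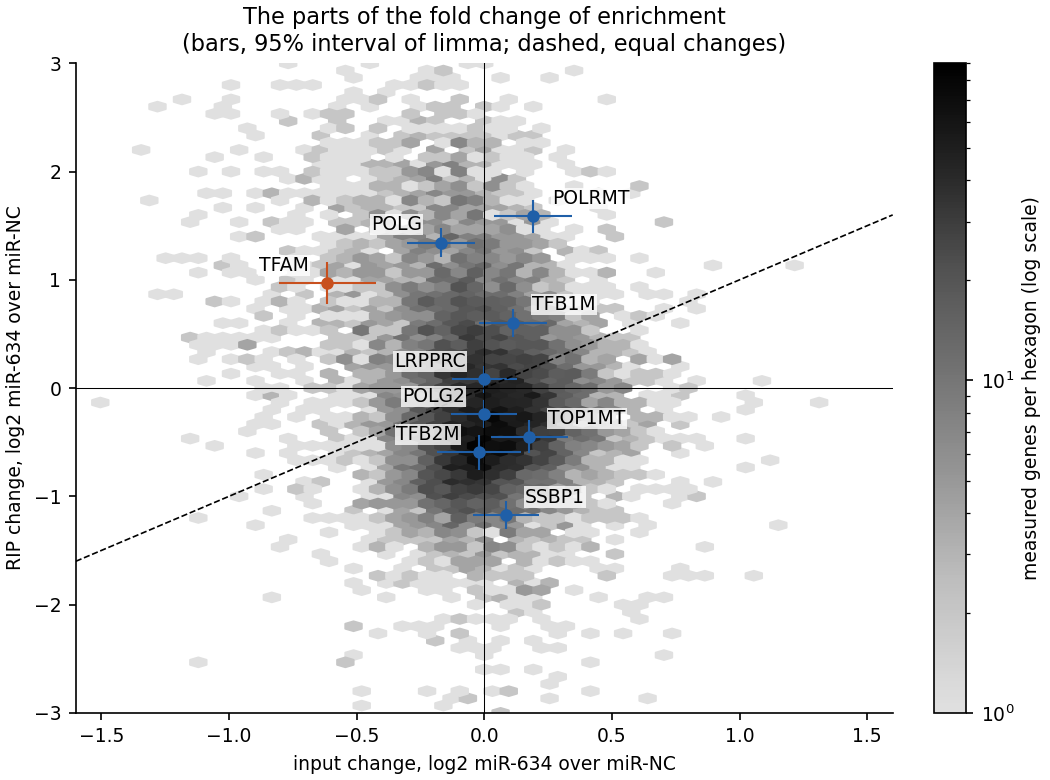
Change of the RIP level (y axis) against change of the input level (x axis), both log2 miR-634 over miR-NC, for the 9 genes with 95% intervals and, in gray, the number of measured genes in each hexagon. TFAM stands to the left at an input change of -0.61, and the other 8 genes lie between -0.17 and 0.19; 52 of 10956 genes lie outside the axes.

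In the fold change of enrichment, 4 genes of 9 were higher (TFAM, TFB1M, POLRMT and POLG) and 4 were lower (TFB2M, POLG2, SSBP1 and TOP1MT), and LRPPRC did not pass the test. Over all measured genes 27.7% were higher and 42.5% lower. The median was 0.08 for the 9 genes and -0.22 for all measured genes on the log2 scale. The counts in both directions depend on where the zero of the scale is set, and with spike-in scaling also on the error of that fit. When each array was scaled to its spike-in controls in place of the 75th percentile, the median of all genes moved to 0.88, 7179 genes were called higher and 172 lower (97.7% of calls higher, against 39.5% on the main scale), and none of the 9 genes was called lower. On that scale the values of TFB2M, TOP1MT and POLG2 turned to 0.53, 0.48 and 0.86, and that of SSBP1 was -0.16, while POLG2 and LRPPRC were called higher beside the 4 genes above. TFAM, POLG, POLRMT and TFB1M kept this order on both scales, since the scaling shifts every value alike. Against the median gene in place of 0, a comparison chosen after seeing the data, 5 of the 9 genes were higher and 3 lower. Of the 10956 measured genes, 3786 were higher and 3277 lower in that comparison. LRPPRC was then higher at 0.30 (adjusted p = 0.0121), and POLG2 was no longer called at -0.02 (adjusted p = 0.810). The miR-634 RIP arrays also had more spots above background than the miR-NC RIP arrays, as given above, and the part of this in the fold changes was not tested.

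**Figure D3:**
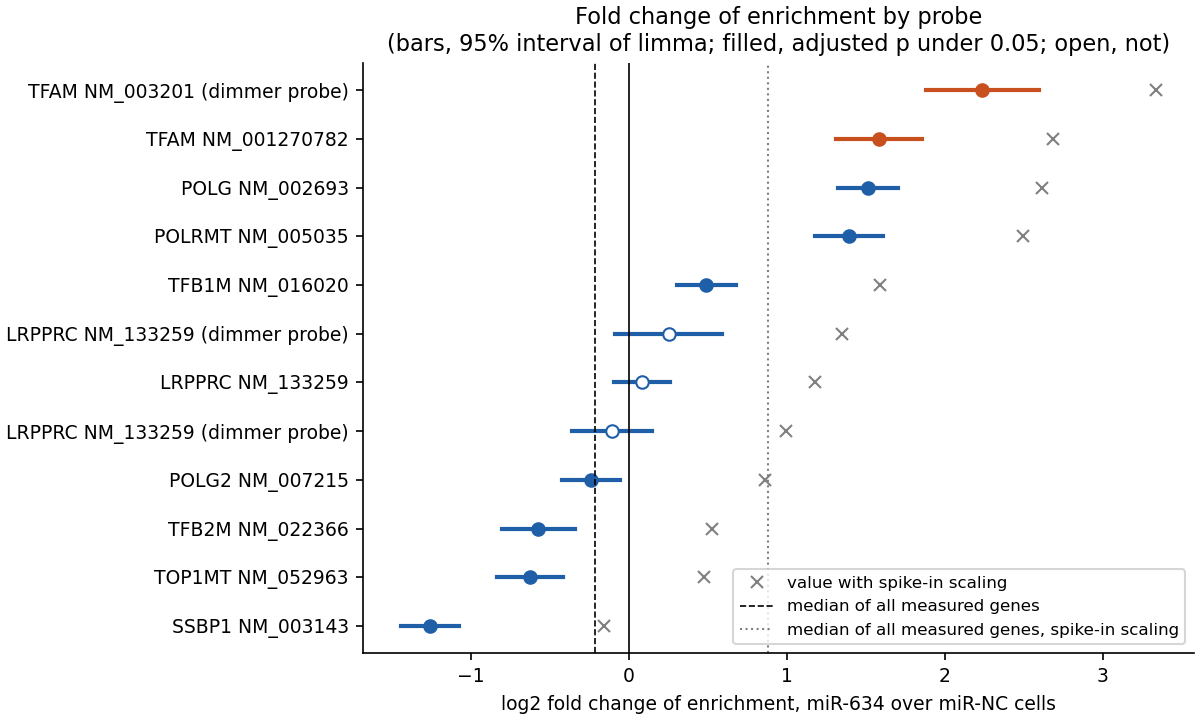
Log2 fold change of enrichment (x axis) of each of the 12 probes (y axis), with 95% intervals, filled points for an adjusted p under 0.05, and crosses for the value with spike-in scaling. The dashed and dotted lines mark the median of all genes on the main scale (-0.22) and with spike-in scaling (0.88); crosses of TFB2M, TOP1MT and POLG2 lie above 0, while TFAM, POLG, POLRMT and TFB1M lie to the right of the median on both scales.

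Of the genes that start transcription, POLRMT, the mitochondrial RNA polymerase, rose in enrichment as TFAM did, but without a lower input. Its levels were -0.31 and -0.30 in the miR-NC input, -0.09 and -0.19 in the miR-NC RIP, -0.16 and -0.06 in the miR-634 input, and 1.40 and 1.49 in the miR-634 RIP. The miR-634 RIP stood far above the other 3 groups, of which the miR-NC RIP and the miR-634 input overlapped. The enrichment in miR-NC cells was 0.16 ± 0.08 (SD, n = 2), which did not pass the test (adjusted p = 0.0530), against 1.56 ± 0.0015 (SD, n = 2) in miR-634 cells. The fold change was 2.63 (log2 1.39, SE 0.09, adjusted p = 3.17e-05 by limma), above that of 91.5% of the genes.

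TFB2M, which melts the promoter for the polymerase, went the other way. Its levels were -0.88 and -0.74 in the miR-NC input, -0.80 and -0.69 in the miR-NC RIP, -0.84 and -0.83 in the miR-634 input, and -1.31 and -1.37 in the miR-634 RIP. The miR-NC input overlapped both the miR-NC RIP and the miR-634 input, which did not overlap each other, and the miR-634 RIP lay below all 3. Enrichment in miR-NC cells was 0.06 ± 0.03 (SD, n = 2), against -0.51 ± 0.05 (SD, n = 2) in miR-634 cells. The log2 fold change was -0.57 (SE 0.10, adjusted p = 0.00206 by limma), with 28.3% of the genes below it, and it was above 0 with spike-in scaling, as given above.

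TFB1M, the sister protein that methylates a ribosomal RNA of the mitochondrion, was the most enriched of the 9 genes in cells that received miR-NC. Its levels were -1.49 and -1.42 in the miR-NC input, -0.06 and -0.02 in the miR-NC RIP, -1.31 and -1.37 in the miR-634 input, and 0.59 and 0.53 in the miR-634 RIP. Both RIP groups lay above both input groups, with the miR-634 RIP highest. The enrichment in miR-NC cells was 1.41 ± 0.02 (SD, n = 2), against 1.90 ± 0.0058 (SD, n = 2) in miR-634 cells. The log2 fold change was 0.49 (SE 0.08, adjusted p = 0.00154 by limma), which is 1.40-fold.

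**Figure D4:**
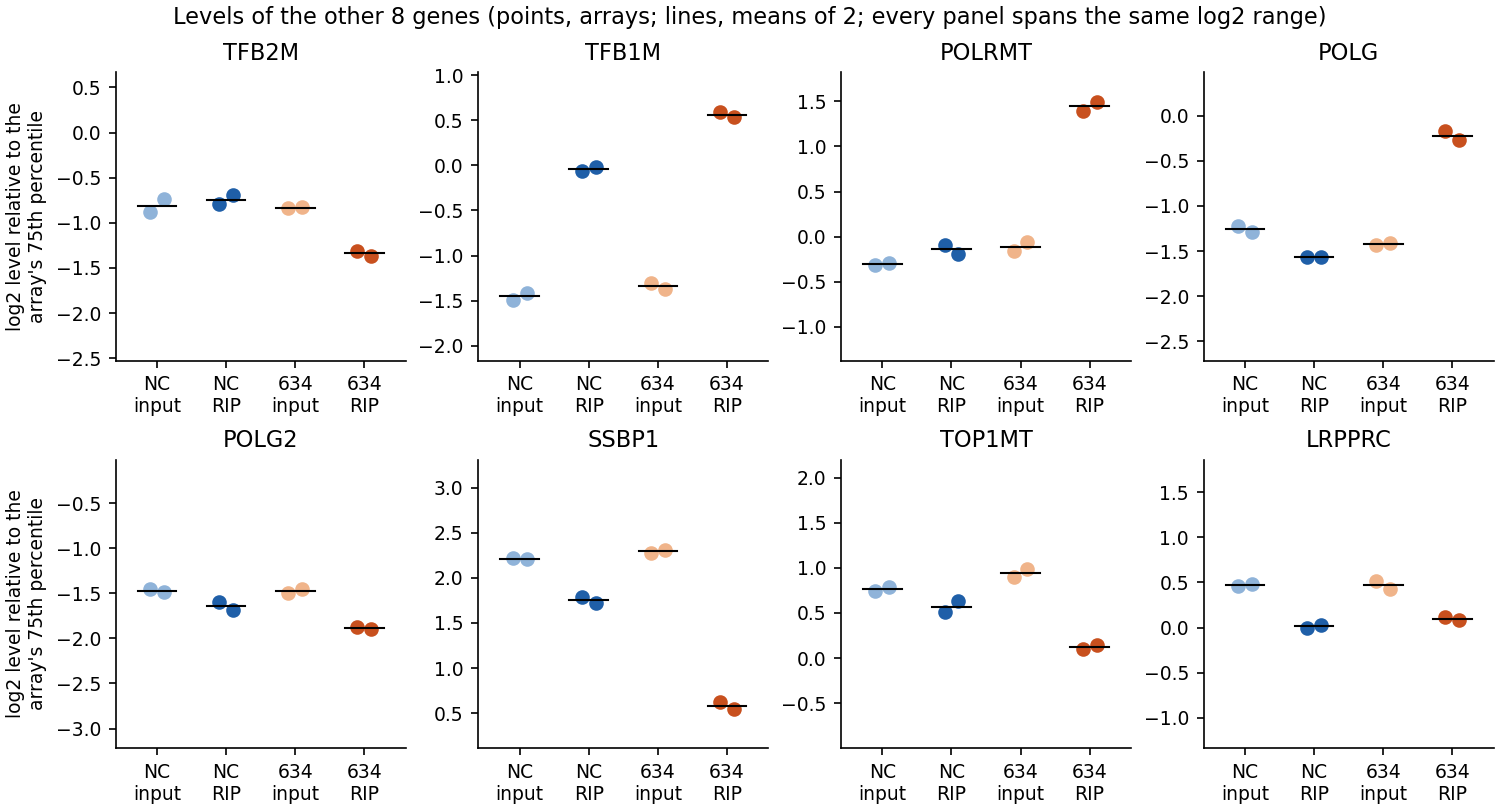
Level of each of the other 8 genes on each array (y axis, log2 relative to the array's 75th percentile, with the same span in every panel) in the 4 groups (x axis), with 1 point an array and a line at the mean of 2. The miR-634 RIP stands above the other groups for TFB1M, POLRMT and POLG and below them for TFB2M, POLG2, SSBP1 and TOP1MT.

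The subunits of the replication polymerase differed. POLG, the catalytic subunit, had levels of -1.23 and -1.29 in the miR-NC input, -1.56 and -1.57 in the miR-NC RIP, -1.44 and -1.42 in the miR-634 input, and -0.17 and -0.27 in the miR-634 RIP. The miR-NC RIP lay lowest and the miR-634 RIP highest, without overlap. The enrichment in miR-NC cells was -0.31 ± 0.04 (SD, n = 2), against 1.20 ± 0.09 (SD, n = 2) in miR-634 cells, so that POLG RNA went from depleted to enriched on this scale. The fold change was 2.86 (log2 1.51, SE 0.08, adjusted p = 1.21e-05 by limma), above that of 92.5% of the genes. With spike-in scaling the enrichment of POLG in miR-NC cells was -2.89, against -0.28 in miR-634 cells. The median measured gene moved from -2.71 to -1.66 on that scale.

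POLG2, the accessory subunit that keeps POLG on the DNA, had levels of -1.45 and -1.49 in the miR-NC input, -1.60 and -1.69 in the miR-NC RIP, -1.49 and -1.45 in the miR-634 input, and -1.87 and -1.90 in the miR-634 RIP. Both inputs were alike, and the miR-634 RIP was lowest. The log2 fold change was -0.24 (SE 0.08, adjusted p = 0.0288 by limma), with 48.9% of the genes below it. This call was lost under 14 of 22 alternatives and turned under 1. It was lost without either miR-NC input array (-0.26 and -0.22), without either miR-634 input array (-0.26 and -0.22), without array 1 of the miR-NC RIP (-0.19) and without array 2 of the miR-634 RIP (-0.23). The 95% interval of POLG, 1.33 to 1.70, and that of POLG2, -0.42 to -0.06, did not overlap.

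SSBP1, the protein that binds single-stranded mitochondrial DNA, had the lowest fold change of the 9 genes. Its levels were 2.22 and 2.20 in the miR-NC input, 1.79 and 1.72 in the miR-NC RIP, 2.28 and 2.31 in the miR-634 input, and 0.63 and 0.54 in the miR-634 RIP. The input arrays lay close together, and both miR-634 RIP arrays were far below all others. In miR-NC cells the enrichment was -0.45 ± 0.04 (SD, n = 2), against -1.71 ± 0.08 (SD, n = 2) in miR-634 cells. The fold change of 0.418 (log2 -1.26, SE 0.08, adjusted p = 2.39e-05 by limma) had 4.32% of the genes below it. With spike-in scaling it stayed below 0, at -0.16, and was not called (adjusted p = 0.629). Against the median gene it was -1.04 (adjusted p = 5.01e-05).

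TOP1MT, the topoisomerase that relaxes mitochondrial DNA, had levels of 0.75 and 0.79 in the miR-NC input, 0.52 and 0.63 in the miR-NC RIP, 0.90 and 0.99 in the miR-634 input, and 0.11 and 0.14 in the miR-634 RIP. The groups did not overlap, and the miR-634 RIP was lowest. In miR-NC cells its enrichment was -0.20 ± 0.05 (SD, n = 2), against -0.82 ± 0.04 (SD, n = 2) in miR-634 cells. The log2 fold change was -0.63 (SE 0.09, adjusted p = 0.000905 by limma) and turned to 0.48 with spike-in scaling.

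LRPPRC, which with SLIRP protects the messenger RNAs made from mitochondrial DNA, had no fold change past the threshold with any of its 3 probes on the main scale. The brightest probe had levels of 0.46 and 0.48 in the miR-NC input, -0.0020 and 0.03 in the miR-NC RIP, 0.52 and 0.43 in the miR-634 input, and 0.11 and 0.08 in the miR-634 RIP. The inputs overlapped, and both RIP groups lay below them. Its log2 fold change was 0.08 with a 95% interval of -0.10 to 0.26 (adjusted p = 0.354 by limma). The other probes gave 0.25 (-0.09 to 0.59, adjusted p = 0.152) and -0.11 (-0.36 to 0.14, adjusted p = 0.392). With spike-in scaling all 3 were called higher, at 1.18, 1.35 and 0.99, and with normexp the second was, at 0.37 (adjusted p = 0.0422). A fold change of enrichment above 1.20 or below 0.936 was thus outside the interval of the brightest probe on this scale. The probes differed in the direction of the enrichment itself, which in miR-NC cells was -0.46 and -0.79 with the first and second probes and 0.41 with the third. All 3 probes are annotated to NM_133259, and the reason was not examined.

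In miR-NC cells, 2 of the 9 genes were enriched with AGO2 (TFB1M and TFAM) and 5 were depleted, against 33.3% and 44.9% of all genes. In miR-634 cells 4 were enriched (TFAM, TFB1M, POLRMT and POLG) and 5 depleted, against 35.9% and 48.1%. With spike-in scaling all 12 probes were depleted in miR-NC cells, from -3.38 to -1.17. The median measured gene stood at -2.71 there, so a value below 0 does not set the 9 genes apart. TFAM, TFB1M, TFB2M, POLRMT and the third LRPPRC probe lay above that median, and the other probes below it. In miR-634 cells on that scale TFAM was still enriched, at 0.51 (adjusted p = 0.0142) and 1.16 (adjusted p = 2.24e-08) with its probes, as was TFB1M at 0.42 (adjusted p = 0.0466). POLRMT at 0.07 (adjusted p = 0.732) was not called. The median measured gene was then at -1.66. The p-values on that scale use the error shared by all probes, so they do not measure the spread of each probe between the arrays.

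The 5 genes whose levels over the 4 groups were nearest to those of the brighter TFAM probe, each centered on its own mean, were PPP1R14C, GRHL1, CBX7, CSNK2A1 and RNLS. The distance was 0.09 log2 units for PPP1R14C and 0.15 to 0.17 for the other 4. Their log2 fold changes of enrichment ran from 1.31 for CBX7 to 1.70 for PPP1R14C, and their input changes from -0.61 to -0.47.

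Other genes of the same pathway were taken from 6 lists with at least 1 gene measured, which held 52 measured genes. Of these, 14 had a higher and 21 a lower fold change of enrichment, shares near the 27.7% higher and 42.5% lower of all measured genes, with a median of -0.10 against -0.22 for all genes. With spike-in scaling, 18 of the 21 lower values turned above 0, 2 of the 52 genes were called lower (HSD17B10 and GABPA) and 32 higher. Of all 10956 measured genes, 172 were called lower and 7179 higher on that scale. A further list, of 15 RNAs encoded by mitochondrial DNA, had 0 genes matched by accession, so these RNAs were not analyzed here.

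The genes that supply nucleotides for mitochondrial DNA showed the highest median of the lists, 1.67 over 8 measured genes. Of these, 5 were higher and 3 lower, against 27.7% and 42.5% of all measured genes. DGUOK, the kinase that salvages purine deoxynucleosides in the mitochondrion, rose 14.4-fold. Its levels were 0.55 and 0.60 in the miR-NC input, 0.26 and 0.21 in the miR-NC RIP, -0.74 and -0.68 in the miR-634 input, and 2.84 and 2.76 in the miR-634 RIP (log2 fold change 3.85, SE 0.08, adjusted p = 1.21e-06 by limma). As for TFAM, the miR-634 input lay lowest and the miR-634 RIP highest, with an input change of -1.29 (adjusted p = 0.000397), but in miR-NC cells the RIP of DGUOK lay below the input, where that of TFAM lay above it. SUCLG1, a subunit of succinyl-CoA ligase, rose 9.67-fold and MPV17, an inner membrane protein, 6.04-fold. TK2, which salvages pyrimidine deoxynucleosides, was lower by log2 -1.02, as were TYMP at -0.93 and SLC25A33 at -0.83, all 3 of which lay above 0 with spike-in scaling. The TK2 probe was dim, with levels of -5.16 and -5.31 in the miR-NC input.

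For replication and repair, 1 of 10 measured genes rose (FEN1, a flap nuclease, at 0.31) and 1 fell (RNASEH1, which removes RNA primers, at -0.78, above 0 with spike-in scaling). For the nucleoid and the degradation of its proteins, 1 of 7 rose (ATAD3B, at 0.53) and 2 fell (LONP1, the protease known to degrade TFAM, at -0.78, and PHB2 at -0.68, both above 0 with spike-in scaling). For elongation and termination of transcription, 1 of 4 rose (MTERF1, at 0.56) and 3 fell (MTERF4 at -1.63, MTERF3 at -0.89 and the elongation factor TEFM at -0.71). Of these 3, MTERF4 alone stayed below 0 with spike-in scaling, at -0.53 (adjusted p = 0.0976). Among all measured genes 27.7% rose and 42.5% fell by the same test, and these lists hold only 4 to 10 measured genes each.

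For mitochondrial RNA processing and stability, 5 of 17 genes rose and 8 fell, again near the 27.7% and 42.5% of all genes. REXO2, a nuclease for very short RNAs, had levels of 1.51 and 1.53 in the miR-NC input, 0.28 and 0.36 in the miR-NC RIP, 1.24 and 1.27 in the miR-634 input, and 4.02 and 3.92 in the miR-634 RIP, and rose 15.0-fold (log2 3.91, SE 0.08, adjusted p = 1.21e-06 by limma). PRORP, the protein subunit that cuts the 5′ ends of mitochondrial tRNAs, rose 5.32-fold, and ELAC2, which cuts their 3′ ends, 2.53-fold. HSD17B10, a partner of PRORP in that complex, fell by 2.87 on the log2 scale (SE 0.07, adjusted p = 1.21e-06) and was still called lower with spike-in scaling at -1.77 (adjusted p = 6.22e-09). Its levels were 2.18 and 2.16 in the miR-NC input, 4.92 and 4.91 in the miR-NC RIP, 2.26 and 2.20 in the miR-634 input, and 2.10 and 2.11 in the miR-634 RIP. HSD17B10 thus went from an enrichment of 2.74 in miR-NC cells to -0.13 in miR-634 cells while its input did not change past the threshold (adjusted p = 0.384). SLIRP, the partner of LRPPRC, was lower at -0.85 and FASTKD5 at -0.99, both above 0 with spike-in scaling.

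Of the nuclear regulators of mitochondrial genes, 1 of 6 rose and 4 fell, against 27.7% and 42.5% of all measured genes. ESRRA, a nuclear receptor of energy metabolism, rose 2.04-fold. GABPA, the DNA-binding subunit of a factor known to act on the TFAM promoter, fell by 1.88 (SE 0.27, adjusted p = 0.00111 by limma) and was called lower with spike-in scaling at -0.78 (adjusted p = 0.0138). The GABPA probe was dim, with levels of -3.97 and -3.87 in the miR-NC input and -4.10 and -4.73 in the miR-NC RIP. In miR-634 cells they were -3.42 and -3.42 in the input and -5.70 and -5.88 in the RIP. YY1 was lower at -0.93 and GABPB1, the partner of GABPA, at -0.51, both above 0 with spike-in scaling. No regulator had an input change past the threshold.

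**Figure D5:**
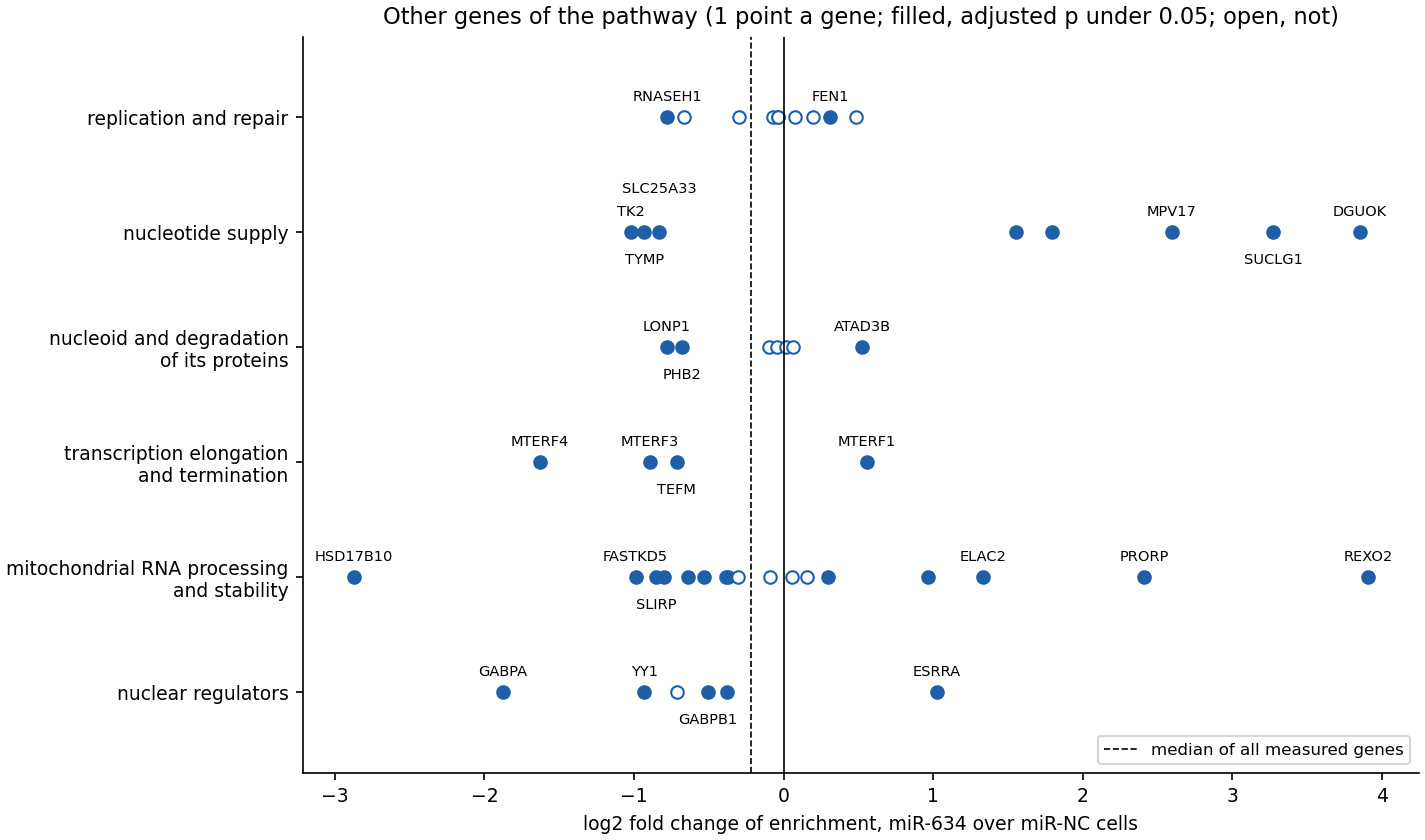
Log2 fold change of enrichment (x axis, main scale) of the 52 measured genes of 6 lists (y axis), 1 point a gene, filled where the adjusted p was under 0.05. DGUOK and REXO2 lie farthest to the right and HSD17B10 farthest to the left; with spike-in scaling every point moves right, and 18 of the 21 filled points below 0 lie above it.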

How the data were processed

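The authors deposited, for each array, spot intensity from Agilent Feature Extraction (version 12.0.1.1 per the file headers, 9.1 per the labels), background-subtracted and not normalized between arrays. They also deposited log2 values, used here only as an alternative. Their medians per array ran from -0.44 to 0.87, and centered per probe they correlated with the main scale at 0.990 over 16805 probes. How they were centered was not settled here.

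Control and outlier spots were left out and a probe's spots averaged. From each log2 intensity the 75th percentile of its array was subtracted, taken from the 16805 probes well above background on all 8 arrays. No spot was saturated. Of 58201 probes, 31104 were named through RefSeq accessions; no coordinates of genes are given. A gene was read from its brightest passing probe. Changes were tested per probe with limma 3.58.1 (R 4.3.3) on the 4 group means, with a threshold of 0.05, and checked on simulated data. Shares over all genes use 10956 genes. The methods' t-test, 1 of the alternatives, used the log2 ratio per replicate number.

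All 9 genes are named, with up to 3 rises and 3 falls in each list and the 5 nearest patterns to TFAM. Members and lists were chosen with earlier results of these data known. Plots used Python 3.11.15, pandas 2.3.3 and matplotlib 3.10.9.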

Additional observations from a re-analysis of the deposited data

Results flagged for a closer look

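The enrichment of 8 of the 9 genes differed between miR-634 and miR-NC cells by the interaction term of the limma fit (RIP against input, in miR-634 against miR-NC cells). The log2 differences were 1.58 for TFAM, 1.51 for POLG, 1.39 for POLRMT, 0.49 for TFB1M, -0.24 for POLG2, -0.57 for TFB2M, -0.63 for TOP1MT and -1.26 for SSBP1. Over all measured genes 27.7% were higher and 42.5% lower by the same test. Groups of 2 arrays are too small for a test of single outlying arrays.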

How the results depend on the processing

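TFAM, POLG, POLRMT and TFB1M were called higher under all 22 alternatives, with TFAM between 1.49 and 2.68 on the log2 scale. With spike-in scaling 0 genes of the 9 were called lower, and TFB2M (0.53), POLG2 (0.86), TOP1MT (0.48) and the third LRPPRC probe (0.99) turned above 0. On that scale 6 genes of the 9 were called higher, against 7179 of all 10956 measured genes. The third LRPPRC probe was not called on the main scale, and it also lay above 0 with normexp (0.025), the percentile over all probes (0.013), the authors' values (0.013) and against the median of all genes (0.11). Without a filter on dim probes the input change of TFAM stayed at -0.61 but did not pass the test, with more probes in both the fit and the adjustment. Without each array in turn, 4 genes were higher and 3 or 4 lower, and the gene lost was POLG2. Deviations of same-numbered arrays correlated at -0.03 to 0.08. The values were 0.07 for the miR-NC input with its RIP and 0.08 for the miR-634 input with its RIP. The other pairs of groups gave -0.03 to 0.03. Values this weak cannot decide whether same-numbered arrays came from a shared preparation, which is not stated. The SDs of enrichment pair the arrays by this number. With the replicate block the counts were 4 higher and 4 lower, and TFAM was 1.58 (adjusted p = 9.33e-05); the block changed no call of the 9 genes. The methods' t-test passed 8 of the 9 genes before adjustment and 7 after it, against 6533 and 5079 of the 10956 measured genes. The number of arrays, 2 a group, limits the precision of every value.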
